A study of Cardamine hirsuta with 6 samples.

Results

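These results concern the DAP-seq peaks of *ChCUC1* whose assigned gene was also bound in ChIP-seq. The assigned gene of each peak, its *A. thaliana* match and its position in the gene come from the annotated peak sheet of the study, and the genes bound in both assays from a list of *C. hirsuta* genes in the same supplement. A peak was chosen by these measured values: a reproducible DAP-seq call, and a gene on the list, which itself was selected on a ChIP-seq and a DAP-seq peak. Of 2432 reproducible peaks, 1997 had a held row in the sheet, and 363 of these lay at a listed gene. The other 1634 annotated peaks serve as the comparison, of which 1 had no assigned gene. The 363 peaks fell on 342 genes, so 80 listed genes had no peak in the rows used here. The rows not held are the 435 reproducible peaks with the lowest −log10 p, the strength of evidence for a peak. The lowest value held was 26.41 and the highest not held 26.40. Just inside this edge lay the peaks at *GNA1* (CARHR197560), with a −log10 p of 26.5, at CARHR284190 with 26.9 and at CARHR240780 (AT4G32790) with 27.0.

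In DAP-seq a tagged transcription factor made in vitro is mixed with sheared genomic DNA, and the fragments that it retains on beads are sequenced. The study had 3 ChCUC1_Halo samples, in which *ChCUC1* carried an N-terminal HaloTag, and 3 Halo samples with the tag alone as control. Both used DNA of the Oxford strain, taken from rosette leaves of plants aged 4 weeks according to the protocol, although the tissue label reads seedlings. No chromatin, cell type or developmental stage is present in such an assay, whereas ChIP-seq records association with chromatin in the plant. The values here come from 4 peak lists: the reproducible list, a list from 1 whole library with 4778 peaks, and the longer and the shorter list from pseudoreplicates (random parts of the reads of a library) with 3753 and 3253 peaks. The 3 lists of single libraries carry no replicate number. All were called against the pooled Halo control, so they share that control with each other and with the reproducible list. By their names, the 3 lists carry different library codes, and the longer list another run label than the whole-library and shorter lists. How far this sets differences between the lists was not tested. Fold enrichment is the signal of a peak over the Halo control. Read depth is unknown, and no source used here names the genome build.

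CUP-SHAPED COTYLEDON (CUC) proteins are NAC transcription factors that act at organ boundaries and leaf margins, where they repress growth between outgrowths and shape auxin distribution. In *C. hirsuta* leaves, which have separate leaflets, they are needed for leaflet formation. DAP-seq shows which DNA the protein can hold by itself, and ChIP-seq where it is found in the plant. Genes with both kinds of peak form the set that the study narrowed to direct targets. The peaks of both assays are joined here by gene alone. Whether they lie at the same place of a gene was not tested. Gene names below are those of the *A. thaliana* matches, and roles are those known from *A. thaliana*.

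The peaks at ChIP-bound genes lay at different places from the other annotated peaks: more often in exons and in intergenic DNA, and less often at the gene start and the transcript end. Of the 363, 146 were in an exon, 72 intergenic, 38 in the promoter-TSS window (from 1 kb upstream to 100 bp downstream of the gene start), 38 in the TTS window (from 100 bp upstream to 1 kb downstream of the transcript end), 36 in an intron and 33 in the promoter up to 3 kb upstream. Exons thus held 40.2% (95% exact binomial interval 35.1 to 45.5%), against 32.1% of the other peaks (29.9 to 34.5%). The promoter-TSS window held 10.5% (7.52 to 14.1%), against 21.7% (19.7 to 23.7%). The TTS window also held 10.5% (7.52 to 14.1%), against 16.0% (14.3 to 17.9%). Intergenic DNA held 19.8% (15.9 to 24.3%), about 3 times the 6.30% of the other peaks (5.17 to 7.59%). Introns and the more distal promoter differed less, at 9.92% against 12.7% and 9.09% against 11.1%, and their intervals overlapped. The intervals cover counting error over peaks, which are not replicates; whether the shares differ beyond the error between libraries was not tested. Both assays assign a peak to a gene, and how far the assignment itself sets these shares was not tested.

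**Figure D1:**
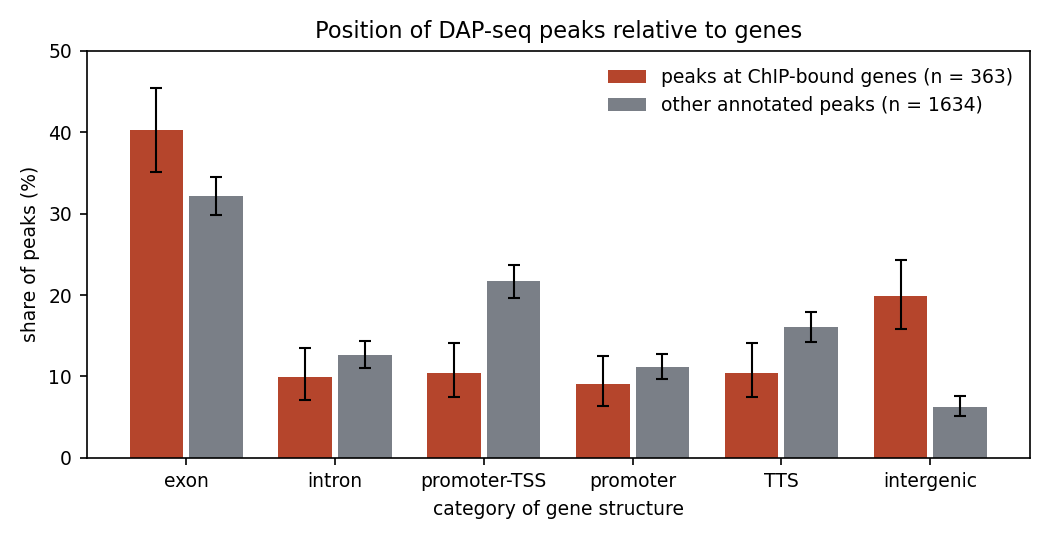
Share of peaks (%) in each category of gene structure, for the 363 peaks at ChIP-bound genes (red) and the 1634 other annotated peaks (grey). Bars give the share and error bars the 95% exact binomial interval; exon and intergenic bars are higher in red, promoter-TSS and TTS bars higher in grey.

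Within exons, peaks at ChIP-bound genes lay often in genes without introns. Of the 146 exon peaks, 57 (39.0%, 31.1 to 47.5%) were in a gene with 1 exon, against 23.0% of the 525 other exon peaks (19.5 to 26.9%). Inner exons of longer genes held 21.9% (15.5 to 29.5%), against 34.5% (30.4 to 38.7%). First exons of genes with several held 12.3%, against 18.3%, and last exons 26.7%, against 24.2%. The kinase gene *WAG2* and the glucosyltransferase gene *UGT72E2*, both with 1 exon, belong to the first kind. The median fold enrichment was 3.27 in genes with 1 exon and 3.48 in exons of the other genes, so the exon peaks of 1-exon genes were not the stronger ones.

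The distance from the gene start to the peak centre had a median of 1196 bp (1039 to 1321 bp), against 953 bp (878 to 1020 bp) in the other peaks. Within 3000 bp lay 79.9% (75.4 to 83.9%), against 90.4% (88.9 to 91.8%). Beyond 10000 bp lay 22 peaks, or 6.06% (3.84 to 9.03%), against 12, or 0.735% (0.38 to 1.28%). These 22 were all intergenic, their median fold enrichment was 3.01, and 17 were found in all 3 lists together. Of the 12 others, 9 were intergenic, their median was 3.05, and 8 were found in all 3 lists. All 3 lists together held 72.4% of all annotated peaks. The last 1000 bp upstream of the start held 8.26% (5.65 to 11.6%), against 16.0% (14.2 to 17.9%). Downstream of the start lay 71.6% (66.7 to 76.2%), against 69.5%, so the side of the gene start was alike. Of the 72 intergenic peaks, 39 lay upstream of their gene and 33 downstream.

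The farthest peak was assigned to CARHR035120, the match of AT3G42550, at 113.9 kb downstream. Its fold enrichment was 2.69 in the reproducible list and 2.60, 2.73 and 2.90 in the lists of the whole library, the longer and the shorter pseudoreplicate. The gene is the one that the study assigned, and whether its start is the nearest was not tested. No other reproducible peak lay within 50 kb. The next was a peak 51.0 kb upstream of *BLH5* (CARHR119720), a BEL1-like homeodomain gene, with 3.18. Then followed CARHR104120 at 36.3 kb with 3.64, CARHR219120 at 35.1 kb with 2.70 and CARHR055610 (AT1G54520) at 26.6 kb with 3.72. Of these 5 peaks, that at CARHR219120 was missing from the shorter list and the other 4 were called in each list.

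Peaks at ChIP-bound genes also stood farther from other peaks. The nearest other reproducible peak was at a median of 24.3 kb (18.0 to 30.7 kb), against 13.4 kb (12.1 to 15.0 kb). No other peak lay within 50 kb for 119 of them (32.8%, 28.0 to 37.9%), against 17.6% (15.8 to 19.6%). The share was higher in each category, with 28.8% against 16.8% in exons, 28.9% against 16.7% in the promoter-TSS window and 44.4% against 24.3% in intergenic DNA. The intervals were apart in exons (21.6 to 36.8% against 13.7 to 20.2%) and overlapped in each of the other categories. Scaffolds held 5.23% of the peaks at ChIP-bound genes and 3.55% of the others, with overlapping intervals (3.18 to 8.05% and 2.71 to 4.56%), and the shares per chromosome also overlapped in their intervals, from 8.54% on chromosome 2 to 14.6% on chromosome 1.

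**Figure D2:**
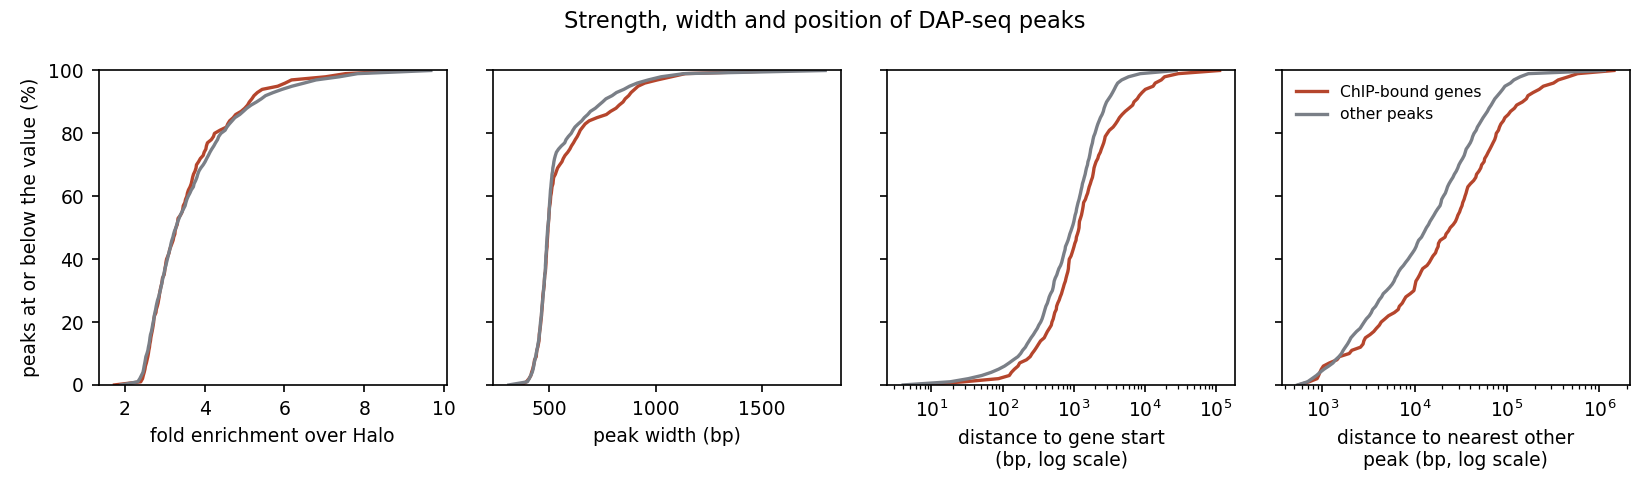
Share of peaks (%) at or below each value of fold enrichment, peak width (bp), distance to the gene start and distance to the nearest other reproducible peak (the last 2 in bp on log scales), for peaks at ChIP-bound genes (red) and other annotated peaks (grey). The curves of fold enrichment lie on each other up to their median of 3.28, whereas the curves of both distances are shifted to the right in red, with medians of 1196 against 953 bp and of 24.3 against 13.4 kb.

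In strength the groups were alike. The median fold enrichment was 3.28 (3.18 to 3.44) at ChIP-bound genes and 3.28 (3.21 to 3.34) elsewhere, and the median −log10 p 57.6 against 57.8. Fold enrichment ran from 1.74 to 9.06, with quartiles of 2.81 and 4.03, against quartiles of 2.78 and 4.18 and a highest value of 9.67 in the other peaks. A fold enrichment of at least 5 was found in 45 peaks, or 12.4% (9.19 to 16.2%), against 12.7% (11.2 to 14.4%). The median width was 493 bp against 492 bp. Wider peaks were somewhat more frequent, with 596 bp against 543 bp at the upper quartile and 16.0% (12.4 to 20.2%) against 12.9% (11.3 to 14.6%) over 700 bp, but the intervals overlapped. Genes with an *A. thaliana* match made up 69.9% of the 342 genes (64.7 to 74.7%) and 72.1% of the 1534 genes of the other peaks (69.8 to 74.3%). Peaks in introns had the highest median fold enrichment among the categories, 3.51 (3.02 to 4.06), and intergenic peaks the lowest, 3.03 (2.89 to 3.26). The intervals of all categories overlapped.

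The peaks at ChIP-bound genes were found in the lists of single libraries about as often as other peaks. At an overlap of at least 1 bp, the whole-library list had 363 of 363 (100%, from 99%), against 99.8% of all 1997 annotated peaks. The longer pseudoreplicate list had 352 (97.0%, 94.6 to 98.5%), against 96.7% of all. The shorter list had 277 (76.3%, 71.6 to 80.6%), against 74.3%. Found in all 3 lists together were 271 (74.7%, 69.9 to 79.1%), against 72.4%. Of the remaining peaks 87 were in 2 lists, 5 in 1 list and 0 in none. Each share lies near the background of all annotated peaks, and none is a result about the ChIP-bound genes. The lists are not independent of the reproducible list, which was made from the same libraries.

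Detection in the shorter list followed the strength of the peak. In the lowest fold quartile 40 of 87 peaks were called (46.0%, 35.2 to 57.0%), in the following quartiles 72.3% and 88.0%, and in the highest 81 of 82 (98.8%, from 93.4%). The other peaks gave 42.7, 63.0, 90.5 and 99.3%. The 5 peaks called only in the whole-library list were those at CARHR154740 (AT3G46280, a protein kinase-like gene) with a fold enrichment of 2.94, *BOP2* (CARHR136490) with 2.83, CARHR062410 with 2.64, *EMB2766* (CARHR140260), which encodes a nuclear pore protein, with 2.53 and CARHR153850 with 2.46. All 5 were below the median of 3.28.

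**Figure D3:**
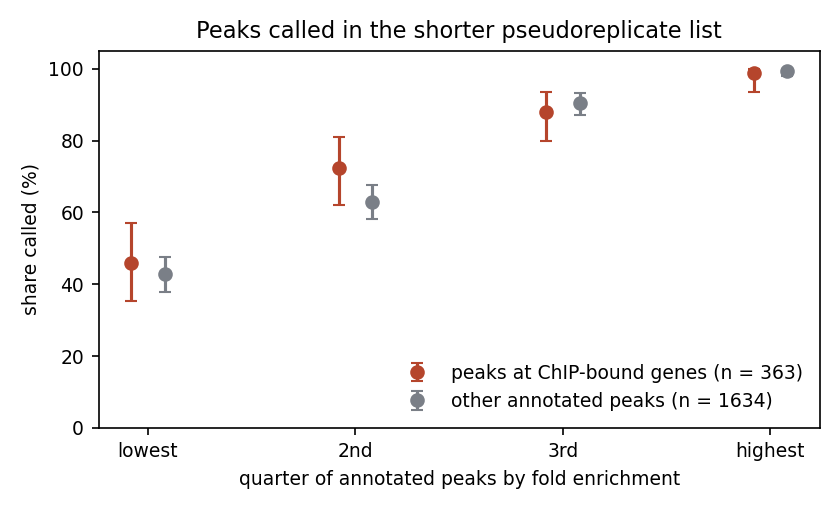
Share of peaks (%) also called in the shorter pseudoreplicate list, by quartile of fold enrichment of the annotated peaks, for peaks at ChIP-bound genes (red) and other annotated peaks (grey), with 95% exact binomial intervals. Both rise from under 50% in the lowest quartile to over 98% in the highest, and their intervals overlap in each quartile.

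Where a peak was called in a further list, its place and strength changed little. The summit moved by a median of 5 bp (whole library), 8 bp (longer pseudoreplicate) and 12 bp (shorter), against 5, 8 and 11 bp in the other peaks. The fold enrichment was 1.02, 0.966 and 0.936 times the reproducible value at the median. Across the shared peaks Spearman's rho of the fold enrichment with the reproducible list was 0.946 (n = 363), 0.889 (n = 352) and 0.751 (n = 277), as a description of peaks that share libraries and control.

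Of the 10 strongest peaks by fold enrichment at ChIP-bound genes, 7 were in an exon. Of all annotated peaks in the highest fold quartile, 99.2% were called in the shorter list, and these 10 in all 3 lists. The strongest lay on chromosome 7 from 21424740 to 21425347, in exon 4 of 5 of *CAD-5* (CARHR242560), a cinnamyl alcohol dehydrogenase of the last step to lignin monomers. Its fold enrichment was 9.06 in the reproducible list, and the lists of the whole library, the longer and the shorter pseudoreplicate gave 8.81, 8.0 and 7.97. The next lay on chromosome 8 from 17671228 to 17671835, in exon 4 of 13 of CARHR273640 (AT5G60010), which matches the respiratory burst oxidase gene *RBOHH*. Its values were 8.95, 8.90, 7.67 and 9.23 in the same order, so the shorter list had the highest one. At both genes the longer pseudoreplicate list gave a lower value than the whole-library list.

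The third, in exon 2 of 4 of CARHR048310 (AT1G76290), was the widest peak of all at ChIP-bound genes, 1621 bp, from 1073104 to 1074724 on chromosome 2. Its fold enrichment was 8.05, with 7.73, 6.76 and 6.68 in the lists, and the shorter list called only 291 bp of it. CARHR198450 had 7.62 at 571 bp upstream of its start, the single promoter-TSS peak among the 10. *Iqd4* (CARHR118390), a calmodulin-binding IQD gene, had 7.48 in exon 5 of 5. CARHR172030 had 7.46 in exon 2 of 2, with 6.99, 6.18 and 8.58 in the lists, the widest spread of the 10 after that of CARHR265800. The photorespiratory enzyme gene *AGT1* (CARHR105160), a serine-glyoxylate aminotransferase, had 7.15 in exon 2 of 5, and no other peak lay within 50 kb. An intergenic peak 3847 bp downstream of the start of CARHR103020 had 7.09. CARHR265800 (AT5G52860), the match of the ABC transporter gene *ABCG8*, had 6.84, with 6.95, 8.24 and 5.74 in the lists. CARHR141760 had 6.42 in the TTS window, with 6.64, 5.41 and 4.52.

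**Figure D4:**
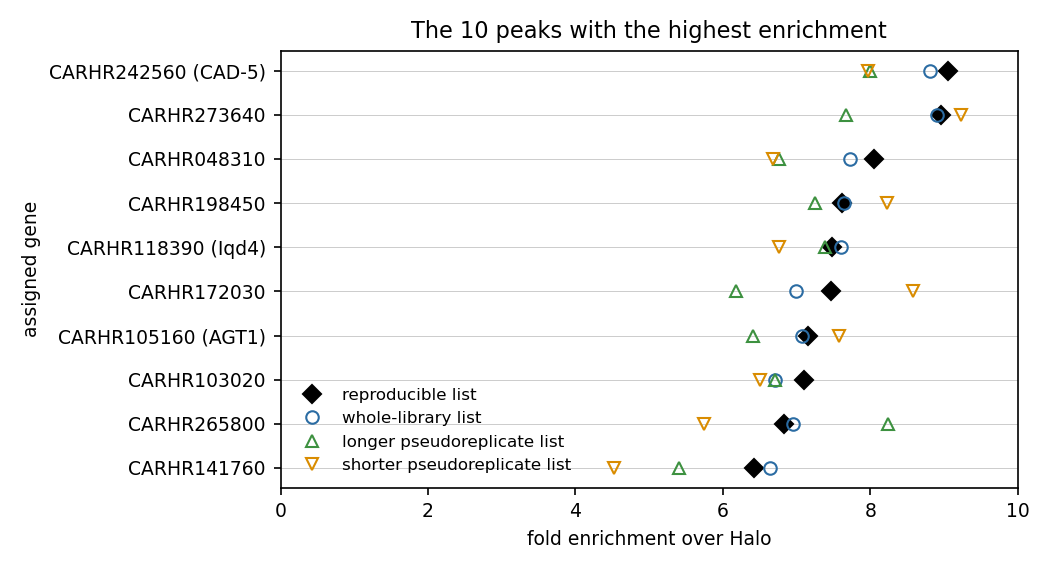
Fold enrichment over Halo of the 10 strongest peaks at ChIP-bound genes (vertical axis, assigned gene) in the reproducible list (filled diamonds) and in the whole-library, longer and shorter pseudoreplicate lists (open symbols). Each peak has a value in all 4 lists; the whole-library value lies close to the reproducible one, and the pseudoreplicate values range from 4.52 at CARHR141760 to 9.23 at CARHR273640.

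The widest peaks had a higher median strength. The 12 peaks over 1000 bp had a median fold enrichment of 4.36, against 3.26 in the others. After CARHR048310 came CARHR265800 with 1402 bp, CARHR027470 with 1235 bp and a fold enrichment of 5.19, CARHR072640 (AT1G78980) with 1156 bp and 5.84, and CARHR106980 (AT2G18570) with 1129 bp and 4.73. In the shorter list none of these 5 was wider than 617 bp.

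The lowest fold enrichment was found at neighbouring genes on chromosome 4. CARHR131270 (AT1G03910) had 1.74, with 1.86 in the whole-library and 1.67 in the longer list and no call in the shorter one. CARHR131260 had 1.93, with 1.98, 1.88 and 2.05. Both peaks are in exons and their summits lie 2004 bp apart. Their −log10 p of 42.0 and 64.2 were high for such a fold enrichment, since peaks at ChIP-bound genes with a fold enrichment from 2 to 2.5 reached at most 32.1. Then followed CARHR049800 with 2.34, CARHR284190 with 2.39 and *EMB2749* (CARHR012570), the match of a NAC gene of xylem vessels, with 2.40.

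Among the 342 genes, 20 had more than 1 peak (5.85%, 3.61 to 8.89%), against 5.93% of the other genes. Of these 19 had 2 peaks and *BLH5* had 3. The peaks of a gene lay at a median of 1782.5 bp from first to last summit, and within 3 kb in 14 genes. At *Iqd4* the exon peak of 7.48 was joined by a peak of 4.24 located 506 bp upstream of the start. At CARHR103020 the intergenic peak of 7.09 was joined by one of 3.32 in the promoter. At CARHR072640, the intron peak of 5.84 and the exon peak of 2.90 were 1499 bp apart. CARHR007840 had peaks of nearly equal strength, 5.36 in exon 2 and 5.23 at 1341 bp upstream. CARHR034680 (AT5G37380, a DnaJ chaperone gene) had 4.28 and 2.85, both intergenic and over 13 kb downstream, and CARHR263510 had 4.04 and 3.43. At each of these genes but CARHR263510 both peaks were called in all 3 lists. These 6 genes were named for the fold enrichment of their strongest peak. Of all annotated peaks, 72.4% were called in each list.

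Genes were then read by role, in 11 lists with 97 different genes of the ChIP-bound list, of which 84 had a peak here. The 90 peaks had a median fold enrichment of 3.18, near the 3.28 of all annotated peaks, and 37 were above it. Of them 46 lay in an exon and 12 were intergenic. The lists were picked from the 234 listed genes for which the gene list itself gives an *A. thaliana* gene, and they do not hold every gene of a role. They are described by counts and medians only, which apply to the genes picked.

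Auxin is a hormone whose local accumulation directs organ outgrowth. Of 7 genes of auxin signalling and transport 6 had a peak, with a median of 3.63. The AGC kinase genes *WAG2* (CARHR089410) and *WAG1* (CARHR044000) had 5.73 and 4.01, both downstream of the start in their only exon. In the whole-library, longer and shorter lists *WAG2* had 6.27, 4.77 and 3.88, and *WAG1* 4.37, 3.94 and 3.04. *TMK1* (CARHR292320), a receptor-like kinase gene of auxin signalling, had 4.39 in the TTS window, with 4.19, 4.39 and 3.61 in the lists. The small auxin up RNA (SAUR) gene CARHR106780 (AT2G16580) had an intergenic peak of 3.25 at 8.23 kb upstream. The auxin synthesis gene *YUC8* (CARHR236510) had 2.86, and another SAUR gene, CARHR120820 (AT2G28085), 2.65. Thus 3 of the 6 peaks were above the median of all annotated peaks. The listed match of the repressor gene *IAA4* had no peak in the rows used here.

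Of 7 genes of other hormones 4 had a peak, each below the median of all peaks. These were *CYP94B1* (CARHR277300), an enzyme of jasmonate turnover, with 2.84, *CYP85A2* (CARHR153250) of brassinosteroid synthesis with 2.73, *CYP735A2* (CARHR059560) of cytokinin synthesis with 2.70 and *CCD8* (CARHR240800) of strigolactone synthesis with 2.63. The peak of *CYP735A2* lay 4.66 kb upstream, and the other 3 were in exons.

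Of 10 genes picked for meristem, boundary and organ growth 7 had a peak, with 9 peaks in all, a median of 3.02, and 2 in exons, 4 intergenic, 2 in the promoter and 1 in the promoter-TSS window. *KNAT4* (CARHR202230), a KNOX homeobox gene, had the strongest, 4.24 at 2123 bp upstream, with 3.97, 4.03 and 3.58 in the lists. *CYP78A5* (CARHR014110), or *KLUH*, a growth-promoting cytochrome P450 gene, had 3.24 in exon 2 of 2. *GTL1* (CARHR032600), a trihelix gene that limits cell growth, had 3.12 at 607 bp upstream. *WOX9* (CARHR128040), a homeobox gene of meristem growth, had 3.02 at 6937 bp upstream. *BOP2*, a leaf-base boundary gene, had 2.83 at 4170 bp upstream, and *KNU* (CARHR199370), a zinc finger gene that ends floral stem cell activity, had 2.60 at 1941 bp upstream. The *BLH5* peaks had 3.18 and 2.82 upstream and 2.74 in the last exon. The single peak of these genes above the median of all annotated peaks was that of *KNAT4*.

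All 12 genes picked as other transcription factors had a peak, 13 in all with a median of 3.03, of which 5 were in exons and 5 intergenic. *WRKY61* (CARHR019510) stood out with 6.10 in its last exon, and with 5.76, 5.41 and 6.72 in the lists. CARHR046300, which matches the Dof gene AT1G64620, had 4.03 downstream, *IDD4* (CARHR288910) 3.78 in its last exon, and *MYB120* (CARHR268350), a pollen tube regulator, 3.45. *bZIP42* (CARHR153500) had 3.31 at 13.0 kb upstream. *DYT1* (CARHR227920), a tapetum gene, had 3.17 and 2.73, and *MYB20* (CARHR058130), an activator of lignin genes, 3.03 at 11.3 kb downstream. The zinc finger gene *AZF3* (CARHR180740) had 2.93. Of the 13 peaks 5 were above the median of all peaks. Not on the list were CARHR273880 (AT5G60200), the match of the Dof gene *TMO6*, with 5.13 in an exon, and the zinc finger gene CARHR084980 (AT3G10470), with 3.15 in an exon, which are named here after their values were seen.

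Phenylpropanoids are made from phenylalanine and lead to lignin and flavonoids. Of 11 such genes 8 had a peak, and all 8 peaks were in exons, downstream of the start. The median of 4.37 was the highest of the lists as picked, with the transporter gene *TT12* counted here only. After *CAD-5* came the laccase gene *IRX12* (CARHR132660), which joins lignin monomers, with 5.84, and 5.18, 5.24 and 6.73 in the lists. *4CL5* (CARHR097130), an activating enzyme near the head of the pathway, had 5.07, and *TT12* (CARHR169440), a vacuolar transporter of proanthocyanidin precursors, 5.01. These 4 were among the 6 of the 8 peaks called in each list, beside 72.4% of all annotated peaks. Weaker peaks lay in the only exon of *UGT72E2* (CARHR281030) with 3.72, *UF3GT* (CARHR267220) with 3.49, *UGT84A3* (CARHR222260) with 3.18 and *AT5MAT* (CARHR153080) with 3.08, which encode transferases of sugar or malonyl groups. Genes of the list with no peak in the rows used here were the matches of AT5G13930 (*CHS*), AT3G10340 and AT4G15500.

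Cell wall genes had lower values, with a peak at 11 of 12 genes and a median of 2.94 over 13 peaks. CARHR071920 (AT1G78400), a pectin lyase-like gene, had 4.63, and the endoglucanase gene *GH9C2* (CARHR046540) had 3.83 in an exon and 2.79 upstream. *CEL5* (CARHR023230) had 3.29 at its start and 3.21 in its last exon, and *GH9A2* (CARHR057380), another endoglucanase gene, 3.21 in an intron. CARHR009930 (AT1G09890), a rhamnogalacturonate lyase-like gene, had 3.04, and the arabinogalactan gene *FLA12* (CARHR274160) 2.94. CARHR154070 (AT3G29360), for a UDP-glucose dehydrogenase, had 2.92 and *CSLE1* (CARHR045550), a cellulose synthase-like gene, 2.79. The peaks above the median of all annotated peaks numbered 3.

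Cuticle and suberin lipid genes had a peak at 3 of 4 genes. These were *CYP86A1* (CARHR272790), a fatty acid hydroxylase of suberin, with 3.89, the acyltransferase gene *GPAT1* (CARHR006140) with 3.45 and *KCS12* (CARHR121740), a fatty acid elongase gene, with 3.27.

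Membrane transporter genes were the list with the most peaks, 18 at 18 of 19 genes, with a median of 3.83 and 11 above the median of all annotated peaks. Of these 12 were in exons, 3 in introns and none was intergenic. Next to *ABCG8* stood its relative *ABCG4* (CARHR233200, AT4G25750), also with 1 exon, with 5.88, and 5.82, 5.75 and 5.35 in the lists. *PHO1;H1* (CARHR061560), for phosphate export, had 5.19, *STP14* (CARHR070680), for a sugar carrier, 4.92, the cation exchanger gene *CHX17* (CARHR231090) 4.76 and the proton pump gene *AHA6* (CARHR104060) 4.55. *ABCG10* (CARHR043500, AT1G53270) and *ABCG19* (CARHR165160, listed as *ATWBC19*) had 3.96 and 3.94 in the TTS window. The lowest value of the list was 2.65.

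Receptor-like kinase genes had a peak at 7 of 8 genes, with a median of 3.46. *CRK2* (CARHR063730), a cysteine-rich receptor-like kinase gene, had 4.67 at 1878 bp upstream, with 4.39, 4.47 and 4.6 in the lists. After *TMK1* came *RLK902* (CARHR093190) with 3.50, CARHR284640 (AT5G48940) with 3.46, *CRK39* (CARHR252960) with 3.25, CARHR217390 (AT5G35370) with 3.01 and CARHR154740 with 2.94. Of its 7 hand-picked peaks 3 were called in each of the 3 peak lists, beside 64 of 90 over all gene lists. Of all annotated peaks, 72.4% were called in each.

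All 6 genes picked for light reactions and light response had a peak, and all 7 peaks lay downstream of the start. *STN7* (CARHR061670), a thylakoid kinase gene of light acclimation, had 5.98 in the TTS window, with 6.38, 5.01 and 6.47 in the lists. *PSBS* (CARHR035950), needed for the quenching of excess light energy, had 3.51 in an intron. The phototropin gene *NPH1* (CARHR149890) had 2.99, *PMI1* (CARHR035190), for chloroplast movement, 2.92, *PORA* (CARHR267410), of chlorophyll synthesis, 2.70 and 2.47, and *PGR5* (CARHR103280), of cyclic electron flow, 2.58. Above the median of all peaks were *STN7* and *PSBS*. The 3 subtilase genes on the list, for secreted proteases, had 4.21 at CARHR285350 (AT5G59190), 3.02 at *SBT3.5* (CARHR032270) and 2.46 at CARHR285410 (AT5G59130). Not on the list were further subtilase matches, named here after their values were seen: CARHR272770 (AT5G58840), with a higher value of 5.01 in the promoter, and CARHR285480 (AT5G59120), with 3.42 in an intron and 2.93 in the promoter.

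**Figure D5:**
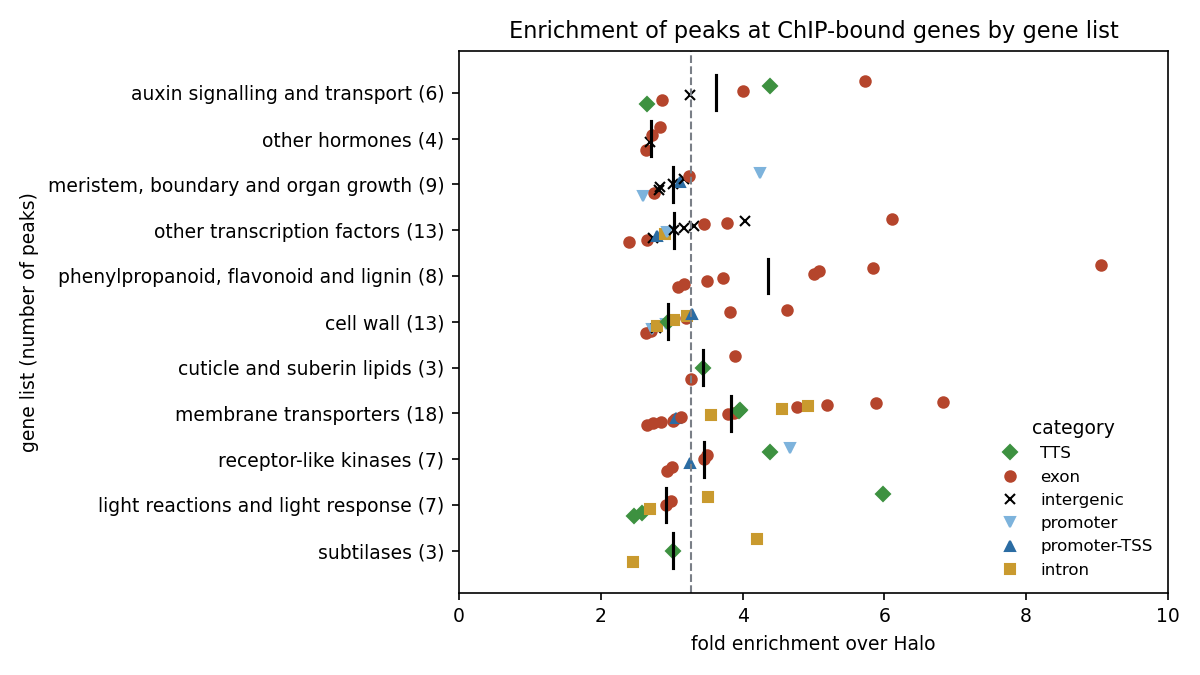
Fold enrichment over Halo of each peak at ChIP-bound genes in the 11 gene lists, with the number of peaks in parentheses; symbols give the category of gene structure, black bars the median of a list and the dashed line the median of all annotated peaks, 3.28. The phenylpropanoid list has the highest median of the lists as picked, 4.37, and holds exon peaks only. The intergenic crosses lie in the meristem, transcription factor, auxin, other hormone and cell wall lists.

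The study narrowed the ChIP-bound genes to 28 targets by their response to *ChCUC1*, and 24 peaks lay at 24 of them. Their median fold enrichment was 3.70, from 2.41 to 9.06, against 3.26 in the other peaks at ChIP-bound genes. Of these 24 peaks 15 were in an exon, 9 of them in a gene with 1 exon, and 18 were called in each list. This last count lies near the 72.4% of all annotated peaks called in each list. The targets were chosen on the same binding, so these values are a description.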

How the data were processed

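DAP-seq peak lists of 3 ChCUC1_Halo samples, with 3 Halo samples as control, were used as the authors deposited them. Bowtie, MACS2 and bedtools are named in the processing notes of the submitters; no source used here gives their versions or the genome build. Per the file names, duplicates were removed and the single-library lists called at a p-value threshold of 0.01. The authors' deposited values were the fold enrichment (a ratio over the control), the −log10 p-value, the summit position in bp and the irreproducible discovery rate score of the reproducible list. Values of that list are pooled and carry no replicate error, its control was taken to be Halo, and columns of q-values were not used.

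Peaks were joined by position to the study's sheet, held in part, for gene, category and distance. The ChIP-seq sheet was not used. Peaks and lists were compared in SciPy 1.17.1, NumPy 2.4.6 and pandas 2.3.3 under Python 3.11.15, with figures by matplotlib 3.10.9. Overlap counting was tested on simulated lists. Shares have 95% exact binomial intervals and medians 95% order-statistic intervals. No test was run over peaks.

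The members and gene lists were chosen with earlier results of these data known. Genes named are the 10 strongest peaks, 6 genes with several peaks, up to 8 per list, the 5 farthest, widest and lowest, and 3 at the edge of the held rows; the 5 found in 1 list were added after their values were seen. The targets are described as a group. No sequences are shown, since no genome of the lists' build was used here.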

Additional observations from a re-analysis of the deposited data

How the results depend on the processing

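The 15 values were recomputed under 65 settings, of which 53 left them within their 95% interval and 12 moved them beyond it. With peaks of the top score of 1000 only, the median fold enrichment rose to 3.49, against 3.55 in the other annotated peaks. With peaks within 3000 bp of the gene start only, the exon share became 49.0% and the intergenic share 2.41%, and without intergenic peaks the exon share was 50.2%. Where the category had to name the assigned gene, the TTS share was 5.97%. For these 4 shares, whose settings by construction leave out distant or differently assigned peaks, the other annotated peaks gave 33.5, 1.15, 34.3 and 9.84%. With summits within 100 bp, the whole-library list had 98.3% of the peaks. Against the stronger 50% of each list, the shares were 97.2% for the whole-library, 83.2% for the longer and 68.0% for the shorter list. The other annotated peaks gave 97.4, 84.0 and 64.5%. When an overlap had to cover 50% of both peaks, the shares were 93.1% for the longer and 16.5% for the shorter list. The median width of 196 bp in the shorter list rarely allows such an overlap. The other annotated peaks gave 93.1 and 18.5%. When each list in turn was omitted, the share called in all remaining lists ran from 74.7 to 97.0%, the highest without the shorter list. In the other annotated peaks this share ran from 72.0 to 96.5%. The settings on distance and intergenic peaks for the category shares, those for the 50 kb share and those for exon peaks of 1-exon genes were chosen after seeing the data. No paired analysis was possible because the lists carry no replicate numbers. Depth is unknown, and the weakest 435 reproducible peaks were not analysed here, so medians apply to the stronger peaks.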

Other observations

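Some ChIP-bound genes with a DAP-seq peak lay near one another, with or without other genes between them. Counting genes whose peak summits were up to 50 kb apart with no other limit, 27 runs held 59 of the 342 genes. Of these runs 4 had 3 or more genes. The run with the most genes, on scaffold NSCAFA.214I, held CARHR285350, CARHR285410, CARHR285460 and CARHR285480 with 5 peaks over 31.0 kb and fold enrichments from 2.46 to 4.21. CARHR285350, CARHR285410 and CARHR285480 match subtilase genes; a part of reads shared between near-identical copies was not tested. On chromosome 6 a run of 3 genes over 96.0 kb ended in the strong peak at CARHR198450, and on chromosome 1 a run of 3 genes over 57.8 kb had from 2.90 to 3.78. No expected number of runs was computed.

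The category of 28 of the 363 peaks (7.71%, 5.19 to 11%) named another gene than the assigned one, against 12.9% of the other annotated peaks (11.3 to 14.6%). Of the 28, 18 lay in the TTS window, 7 in the promoter-TSS window and 3 in an exon of the other gene.

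Among all annotated peaks, 6 had a fold enrichment under 2, and 2 of them were the neighbouring peaks at CARHR131260 and CARHR131270.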
